A study of Homo sapiens with 21 samples.

Results

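Feedback genes of the MAPK pathway were followed through RNA-seq libraries of K562 cells, an established human erythroleukaemia line. The 10 genes are the dual-specificity phosphatases DUSP4, DUSP5 and DUSP6, the Sprouty genes SPRY1, SPRY2 and SPRY4, the Sprouty-related genes SPRED1 and SPRED2, and the ETS transcription factors ETV4 and ETV5. They were chosen by name, as textbook feedback and output genes of ERK signalling. These genes and the other lists below were chosen with earlier results of these data known. The 10 genes were looked up by their Ensembl identifiers among 61541 genes of a gene count table and 57300 gene names of exon-bin files. All 10 were present in both. In the bin files ETV5 shares a joined name with DGKG, a diacylglycerol kinase gene that overlaps it on the same strand, so values there are for both genes.

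In the RAS to ERK cascade, RAS activates RAF kinases, RAF activates MEK, and MEK phosphorylates ERK, which enters the nucleus and switches on early genes. Among those early genes are the pathway's own brakes. DUSP phosphatases remove the activating phosphates from ERK and related kinases, Sprouty proteins dampen the signal from receptors to RAS and RAF, and SPRED proteins bring the RAS-inactivating protein neurofibromin to the membrane. ETV4 and ETV5 are transcription factors of the PEA3 group whose genes are held down by the repressor CIC until ERK signalling relieves it. K562 cells carry the BCR-ABL1 fusion kinase, which feeds into this cascade.

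The study held 21 libraries in 7 groups of 3. In the MYB experiment, K562 cells labelled MYB overexpression and NMYB overexpression were set against cells labelled empty vector. According to the design text, full-length MYB and a MYB isoform truncated at its N terminus were overexpressed, and the label NMYB is not spelled out further. In the enhancer RNA (eRNA) experiments, cells labelled 34kn were set against 34knContol and cells labelled 34kp against 34kpContol, where 34kn and 34kp are a pair of transcripts made by an upstream enhancer of MYB and each was overexpressed by itself. All groups were grown in RPMI medium with fetal bovine serum. Vectors, promoters, clones and time after transfer are not given in the sources used here, and the labels do not say that replicates come from different cultures. The p-values therefore reflect only how these libraries spread, which may be technical.

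Depth ran from 16552237 to 24462819 gene counts in the MYB experiment and from 36563252 to 41243796 bin counts in the eRNA experiments. Levels are in CPM, a gene's count relative to its library's total, scaled by the TMM factors of edgeR. All 10 erythroid markers of K562 cells were above 1 CPM on average in every group. In the bin files HBG1 and HBG2 share a joined name and thus a value. The lymphoid marker MS4A1, the fibroblast marker LUM and the epithelial marker KRT5 had 0 counts in all 7 groups. Other markers of these lists were present. In empty vector libraries the lymphoid marker CD3D averaged 31.6 CPM, and 6 epithelial markers summed to 62.4 to 67.4 CPM. In 34kp control libraries 6 fibroblast markers summed to 39.7 to 41.5 CPM. Monocytic markers there summed to 1600 to 1720 CPM, but CD68 stands under a name that joins 8 genes, among them EIF4A1 and SENP3. That sum therefore cannot be read as a level of monocytic markers. The MYB transcript, which checks the labels, averaged 227 ± 5.13 CPM in libraries labelled MYB, 208 ± 9.16 CPM in libraries labelled NMYB and 217 ± 4.61 CPM in empty vector libraries (SD, n = 3 each). All libraries labelled MYB lay above all empty vector libraries, but the log2 fold change was only 0.08 (95% interval -0.01 to 0.17, adjusted p = 0.230 by edgeR's quasi-likelihood test), and it was -0.03 for NMYB (adjusted p = 0.727 by edgeR). A clear rise of the overexpressed gene was thus not seen. Whether reads of an overexpression construct would be counted as MYB in this table is not given in the sources used here, so these values do not settle whether MYB was raised, and MYB and NMYB below name libraries by their labels. In the eRNA experiments MYB had log2 fold changes of 0.17 for 34kn and 0.07 for 34kp, with adjusted p-values of 0.205 and 0.699 by edgeR.

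Levels of the 10 genes spanned a wide range in K562 cells. Per kilobase of annotated exons, in empty vector libraries, ETV4 stood highest with 17.8 ± 0.167 CPM per kb, followed by SPRED2 with 14.4 ± 0.551 and SPRY4 with 9.66 ± 0.340 CPM per kb. Next came SPRED1 with 4.25 ± 0.193, ETV5 with 3.57 ± 0.147, SPRY2 with 3.06 ± 0.172 and DUSP5 with 1.81 ± 0.103 CPM per kb, and SPRY1 lay lower at 0.449 ± 0.0408 CPM per kb (SD, n = 3 each). No neighbours in this order overlapped between libraries. At the bottom, DUSP6 and DUSP4, the phosphatases most often read as ERK output, were close to absent. DUSP6 had 7, 5 and 6 counts in MYB libraries, 4, 3 and 3 in NMYB libraries and 3, 7 and 1 in empty vector libraries. DUSP4 had 4, 4 and 3 counts in MYB libraries, 1, 5 and 2 in NMYB libraries and 1, 0 and 1 in empty vector libraries, where a count of 0 allows up to 3 counts per library. Both failed the filter on low counts in every comparison, so tests cover 8 of the 10 genes, and DUSP6 also shares 40.5% of its exon bases with an antisense gene, from which it cannot be separated without a known strand setting.

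**Figure D1:**
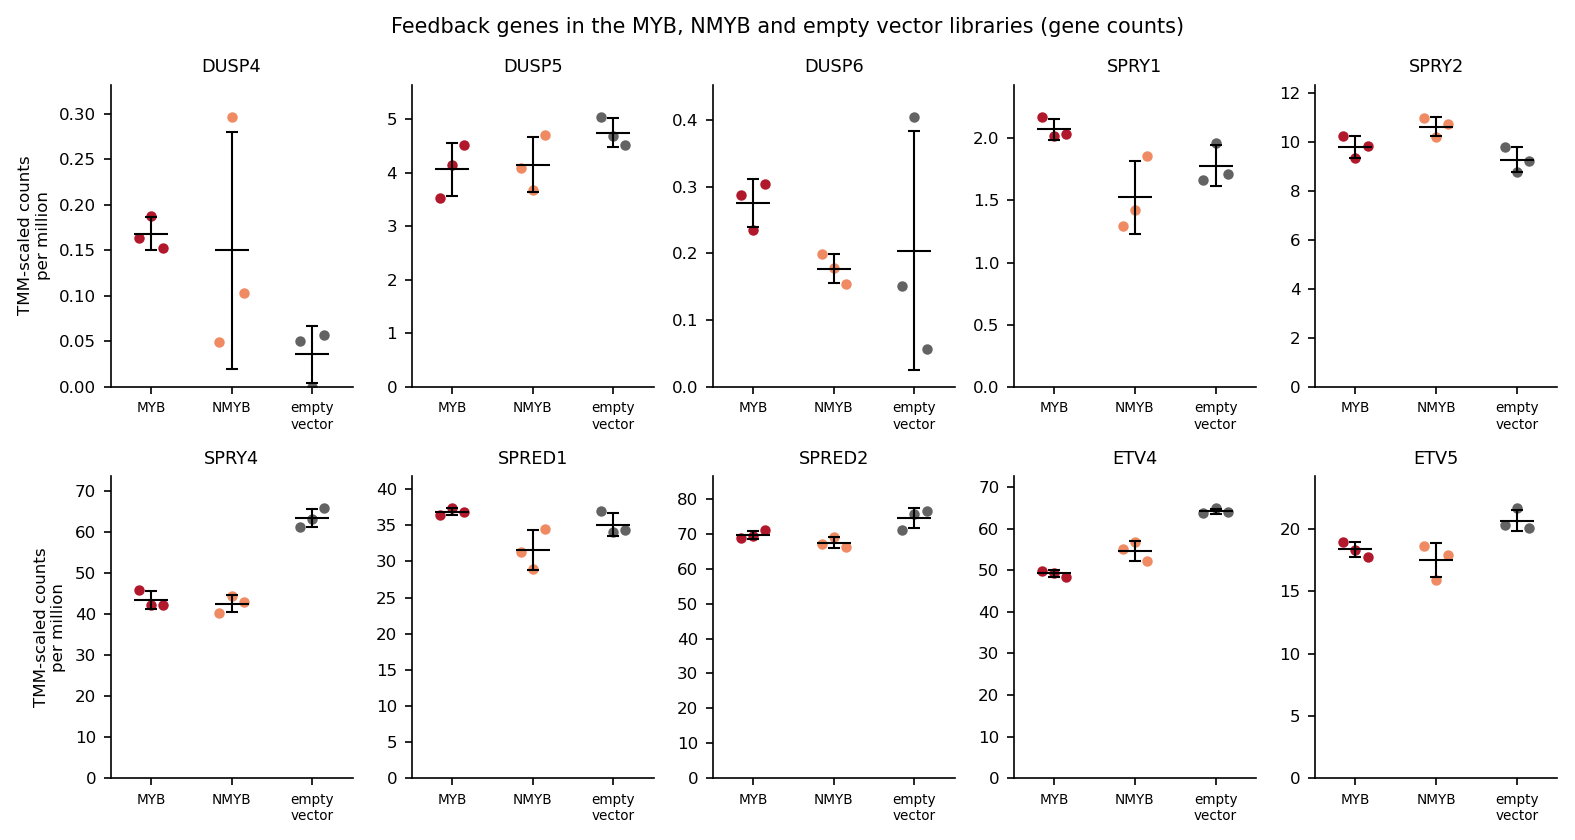
Levels of the 10 genes in MYB, NMYB and empty vector libraries, in TMM-scaled CPM on a linear axis from 0 (points are libraries, bars are mean and SD, n = 3). SPRY4 and ETV4 lie lower in all MYB and NMYB libraries than in all empty vector libraries, while DUSP4 and DUSP6 stay below 0.5 CPM.

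SPRY4 was the gene on which most results turned. It lies on the minus strand of chromosome 5 at chr5:142310427-142326455 (GRCh38, GENCODE 29), and encodes a Sprouty protein that dampens RAS to ERK signalling. SPRED1 lies on the plus strand at chr15:38252326-38357249 and encodes a partner of neurofibromin. The 250 bases before the RefSeq start of each gene (GRCh38.p14, read along the gene's strand) are shown because edgeR called SPRY4 in 3 of the 4 comparisons with a control and SPRED1 in none of them. Capitals mark GGAA, the core that ETS factors such as ETV4 bind, on either strand, so that TTCC is marked too. The SPRY4 window is chr5:142324248-142324497 and the SPRED1 window is chr15:38252586-38252835. Both windows lie inside the GENCODE spans given above, because the RefSeq starts used lie downstream of the GENCODE starts.
SPRY4: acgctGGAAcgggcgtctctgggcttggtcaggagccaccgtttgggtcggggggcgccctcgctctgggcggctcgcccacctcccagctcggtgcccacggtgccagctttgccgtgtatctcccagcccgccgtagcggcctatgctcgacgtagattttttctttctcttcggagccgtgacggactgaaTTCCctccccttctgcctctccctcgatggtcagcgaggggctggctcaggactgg
SPRED1: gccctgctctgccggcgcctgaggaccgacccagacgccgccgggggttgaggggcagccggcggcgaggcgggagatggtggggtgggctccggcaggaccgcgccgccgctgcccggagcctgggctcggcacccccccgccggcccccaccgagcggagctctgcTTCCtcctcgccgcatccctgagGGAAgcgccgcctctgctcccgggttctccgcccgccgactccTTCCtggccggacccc
The SPRY4 window holds 2 GGAA cores and the SPRED1 window 3, against a median of 3 over all RefSeq windows of this length, and 76.5% and 55.1% of windows hold at least as many. GC content is 65.6% for SPRY4 and 78.4% for SPRED1. RefSeq windows of 300 bases, from 250 before to 50 after the start, were found for 6 of the 10 genes (10 windows). None of them holds TGAATGAA or TGAATGGA, which are among the forms that CIC binds, on either strand. The longer ETS forms CCGGAAGT and CAGGAAGT were likewise absent on either strand. Other forms of the CIC site were not searched, so these windows, that of DUSP6 included, cannot be said to lack CIC sites. Among 34943 RefSeq windows, 1.65% hold TGAATGAA, 1.02% TGAATGGA, 4.11% CCGGAAGT and 3.06% CAGGAAGT.

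In cells labelled MYB overexpression, SPRY4 and ETV4 fell and the other 6 tested feedback genes were not called. SPRY4 had 45.9, 42.2 and 42.2 CPM in MYB libraries, against 61.4, 63.2 and 65.8 CPM in empty vector libraries, behind which stood 831 to 1120 and 1093 to 1218 counts. Every MYB library lay below every empty vector library. MYB over empty vector gave a log2 fold change of -0.53 (SE 0.0582, adjusted p = 1.79e-06 by edgeR's quasi-likelihood test with Benjamini-Hochberg adjustment), that is 0.690 times the empty vector level with a 95% interval of 0.634 to 0.751. ETV4 had 49.9, 49.3 and 48.4 CPM in MYB libraries, against 63.7, 64.8 and 64.0 CPM in empty vector libraries, again with no overlap. Its log2 fold change was -0.37 (SE 0.0534, adjusted p = 4.83e-05 by edgeR). The share of all 15823 genes tested that was called in this comparison was 22.3%, with 9.62% called higher and 12.7% called lower, so 2 of 8 feedback genes is close to the background. In bulk RNA, a smaller share of cells that express a gene and less of its RNA per cell cannot be told apart.

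The remaining Sprouty and SPRED genes moved little in MYB libraries. SPRY2 averaged 9.81 ± 0.449 CPM in MYB libraries and 9.29 ± 0.521 CPM in empty vector libraries, and SPRY1 2.07 ± 0.0848 CPM in MYB libraries and 1.78 ± 0.162 CPM in empty vector libraries (SD, n = 3 each). Their log2 fold changes of 0.09 and 0.24 had adjusted p-values of 0.537 and 0.411 by edgeR. SPRED1, at 36.9 ± 0.459 CPM in MYB libraries and 35.1 ± 1.59 CPM in empty vector libraries, overlapped between the groups. For SPRED2 the values were 69.7 ± 1.15 CPM in MYB libraries and 74.4 ± 2.84 CPM in empty vector libraries, without overlap but not called (log2 fold change -0.08, adjusted p = 0.267 by edgeR). ETV5, the close relative of ETV4, had 18.4 ± 0.625 CPM in MYB libraries and 20.7 ± 0.852 CPM in empty vector libraries (log2 fold change -0.16, adjusted p = 0.147 by edgeR), and the phosphatase gene DUSP5 had 4.06 ± 0.501 CPM in MYB libraries and 4.74 ± 0.269 CPM in empty vector libraries (log2 fold change -0.23, adjusted p = 0.265 by edgeR). In all, the groups did not overlap for 5 of the 8 genes, 4 of them lower in MYB libraries, while 40.2% of all genes tested did not overlap.

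In NMYB libraries SPRY4 and ETV4 were again the 2 genes called, read against the same empty vector libraries. SPRY4 had 40.3, 44.4 and 42.9 CPM in NMYB libraries, all below the empty vector values of 61.4, 63.2 and 65.8 CPM. It fell by 0.54 on the log2 scale (SE 0.0590, adjusted p = 2.47e-06 by edgeR). ETV4 had 55.0, 56.6 and 52.1 CPM in NMYB libraries, against 63.7, 64.8 and 64.0 CPM in empty vector libraries, and fell by 0.20 on the log2 scale (SE 0.0536, adjusted p = 0.0104 by edgeR). Without NMYB replicate 3 the adjusted p of ETV4 was 0.0584. The background was 24.9% of genes called, 12.6% higher and 12.4% lower, so 2 of 8 is again close to it. Of the genes not called, ETV5 had 17.5 ± 1.39 CPM in NMYB libraries and 20.7 ± 0.852 CPM in empty vector libraries (adjusted p = 0.0638 by edgeR), and SPRY2 10.6 ± 0.399 CPM in NMYB libraries and 9.29 ± 0.521 CPM in empty vector libraries (adjusted p = 0.0794 by edgeR). SPRED1 averaged 31.6 ± 2.76 CPM, SPRED2 67.4 ± 1.57 CPM, SPRY1 1.52 ± 0.295 CPM and DUSP5 4.15 ± 0.512 CPM in NMYB libraries, with adjusted p-values of 0.139 to 0.572. For 5 of the 8 genes the NMYB and empty vector libraries did not overlap, beside 39.4% of all genes.

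Set directly against each other, NMYB and MYB libraries differed in none of the 8 genes at the threshold. The background was 1.14% of genes called by edgeR (0.518% higher and 0.626% lower in NMYB). Of the 8 genes, 3 had an unadjusted p below 0.05, beside 2806 of all 15823 genes tested. DESeq2 called 0 of the 8, beside 399 of 9074 genes. SPRY4 was nearly level, with a log2 fold change of NMYB over MYB of -0.01 (95% interval -0.13 to 0.12). ETV4 was higher in all 3 NMYB libraries than in all 3 MYB libraries, at 54.6 ± 2.31 CPM in NMYB libraries and 49.2 ± 0.732 CPM in MYB libraries (log2 fold change 0.17, SE 0.0539, adjusted p = 0.111 by edgeR). SPRED1 was lower in all 3 NMYB libraries (log2 fold change -0.20, adjusted p = 0.138 by edgeR), as was SPRY1 (log2 fold change -0.42, adjusted p = 0.268 by edgeR). These were the 3 genes without overlap, beside 22.3% of all genes. DUSP5, SPRY2, SPRED2 and ETV5 overlapped, with log2 fold changes of 0.07, 0.14, -0.02 and -0.04 and adjusted p-values of 0.427 to 0.844 by edgeR.

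**Figure D2:**
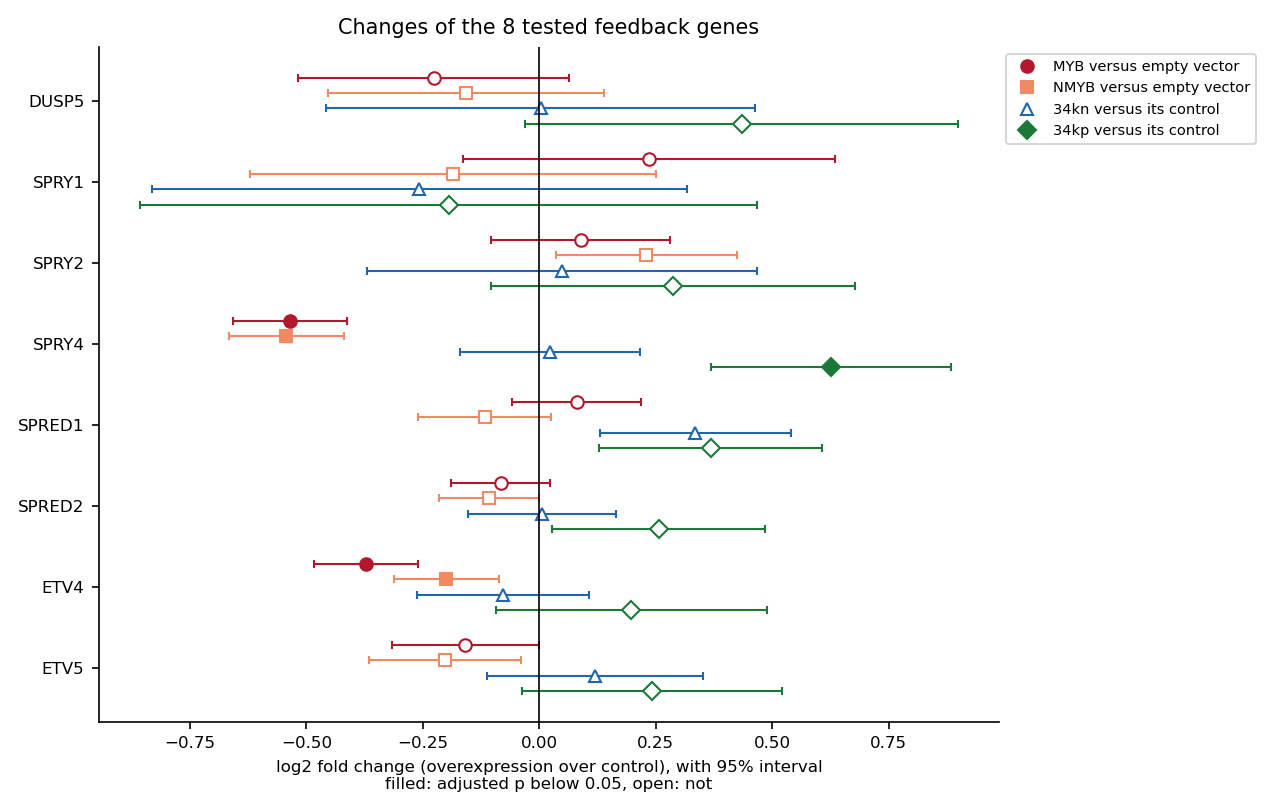
Log2 fold changes of the 8 tested genes with 95% intervals, on a linear axis, for MYB and NMYB over empty vector (gene counts) and for 34kn and 34kp over their own controls (summed exon bin counts); filled symbols have an adjusted p below 0.05. SPRY4 lies at -0.53 and -0.54 in the MYB and NMYB comparisons and at 0.63 for 34kp, and ETV4 is the other gene with filled symbols.

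Genes that ERK signalling induces, other than the feedback genes, were looked at as a list of 16, of which 12 passed the filter in the MYB experiment. In MYB libraries 5 of the 12 fell and 0 rose, with a median log2 fold change of -0.30 beside 0.0055 over all genes, of which 12.7% were called lower and 9.62% higher. EGR1, an immediate-early transcription factor, averaged 293 ± 13.8 CPM in MYB libraries and 467 ± 0.945 CPM in empty vector libraries, and FOS, a subunit of AP-1, 13.7 ± 0.106 CPM in MYB libraries and 29.8 ± 0.982 CPM in empty vector libraries (SD, n = 3 each). Their log2 fold changes were -0.66 (adjusted p = 2.42e-09) and -1.11 (adjusted p = 3.25e-08, edgeR). PHLDA1, a pleckstrin-like protein gene, had 7.16 ± 0.406 CPM in MYB libraries and 13.1 ± 0.601 CPM in empty vector libraries, and EGR3, with only 2 to 22 counts per library in these groups, was also called (log2 fold change -1.43), but its adjusted p was as high as 0.158 with a library left out, that being MYB replicate 1. MCL1, an antiapoptotic BCL2 relative, was the fifth, at -0.39. In NMYB libraries 4 of the 12 fell and 0 rose, with a median of -0.24 beside 0.0076 over all genes, of which 12.4% were called lower and 12.6% higher: EGR1 by 0.36, FOS by 0.95, PHLDA1 by 0.93 and MCL1 by 0.32 on the log2 scale. EGR1 was higher in NMYB than in MYB libraries, at 355 ± 10.7 CPM in NMYB libraries and 293 ± 13.8 CPM in MYB libraries (log2 fold change 0.30, adjusted p = 0.00888 by edgeR). Without MYB replicate 1 its adjusted p was 0.0824, and edgeR called 0 of all genes between NMYB and MYB, with 2136 at an unadjusted p below 0.05.

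Of 20 genes for the cascade's own kinases, adaptors and RAS proteins, 2 rose and 4 fell in MYB libraries, beside 22.3% of all genes called. Among those called, the 4 with the largest changes were MAPK3, which encodes ERK1 (log2 fold change -0.48), the ERK-activated kinase gene RPS6KA1 (-0.46), the scaffold gene KSR1 (-0.42) and the adaptor gene GAB2 (0.21), whose adjusted p was 0.0726 without MYB replicate 1. In NMYB libraries 1 rose, HRAS by 0.41, and 8 fell, among them KSR1 by 0.38, RPS6KA3 by 0.31 and RPS6KA1 by 0.30, beside 24.9% of all genes called. The median log2 fold change of the 20 was 0.0021 in MYB libraries and -0.08 in NMYB libraries. Among 11 inhibitors of the RAS pathway, CBL, a ubiquitin ligase that takes receptors off the membrane, averaged 97.6 ± 2.59 CPM in MYB libraries, 86.6 ± 2.26 CPM in NMYB libraries and 141 ± 6.58 CPM in empty vector libraries. CBL and the RAS GTPase activator RASA3 were the 2 of 11 inhibitors called in MYB libraries, with CBL at -0.52 and RASA3 at -0.37, beside 22.3% of all genes called. NMYB libraries had 3 that fell and 2 that rose, beside 24.9% of all genes called. Among them were CBL at -0.67, LZTR1 at 0.34, RASA3 at -0.25 and NF1, which encodes neurofibromin, at -0.23. Without empty vector replicate 3 the adjusted p of LZTR1 was 0.0664.

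Receptor genes followed. ERBB3, a receptor of the EGF receptor family, averaged 5.99 ± 0.798 CPM in MYB libraries, 6.27 ± 0.275 CPM in NMYB libraries and 10.4 ± 0.891 CPM in empty vector libraries. Of 11 receptor genes tested, 4 fell in MYB libraries, beside 12.7% of all genes called lower. Among them were ERBB3 at -0.79, FGFR4 at -0.68 and FGFR3 at -0.45. In NMYB libraries 3 fell, among them ERBB3 at -0.70 and FGFR4 at -0.42, beside 12.4% of all genes called lower. In the list of CIC and the regulators of ETS factors, 3 of 12 rose in MYB libraries and 2 in NMYB libraries. Over all genes, 9.62% were called higher in MYB libraries and 12.6% in NMYB libraries. ETS1, itself an ETS factor, rose to 1.36 ± 0.345 CPM in MYB libraries and 1.54 ± 0.347 CPM in NMYB libraries, against 0.369 ± 0.0832 CPM in empty vector libraries, where it had only 6 to 8 counts per library, and the ETS repressor gene ERF rose by 0.31 in MYB libraries and 0.36 in NMYB libraries on the log2 scale. ATXN1L, which encodes a partner of CIC, rose by 0.17 in MYB libraries. Of 9 other DUSP and related family genes tested, DUSP10, a phosphatase for the stress kinases, fell by 0.46 in MYB libraries and by 0.28 in NMYB libraries, and DUSP16 rose by 0.21 in MYB libraries. None of the 9 was called otherwise, beside 22.3% of all genes called in MYB libraries and 24.9% in NMYB libraries. With a library left out, the adjusted p was as high as 0.225 for DUSP16 in MYB (without MYB replicate 3), 0.150 for DUSP10 in NMYB (without NMYB replicate 3) and 0.208 for ATXN1L in MYB (without MYB replicate 1), and each of these calls was lost without 4 or 5 of the 6 libraries.

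Markers of other cell types moved in the same libraries, and their part in these results was not tested. Summed over 6 lymphoid markers the level was 16.3 to 17.8 CPM in MYB libraries, 19.4 to 20.7 CPM in NMYB libraries and 36.7 to 37.8 CPM in empty vector libraries, with 4 of the 6 under 1 CPM and MS4A1 at 0 in each group. CD3D made up the called part (log2 fold change -1.24 for MYB and -1.005 for NMYB). The 6 monocytic markers summed to 33.9 to 39.0 CPM in MYB libraries, 37.6 to 40.5 CPM in NMYB libraries and 25.2 to 30.2 CPM in empty vector libraries, with 4 of 6 under 1 CPM. Most of each sum was LYZ, at 34.8 ± 2.88 CPM in MYB libraries, 36.4 ± 1.85 CPM in NMYB libraries and 25.5 ± 2.51 CPM in empty vector libraries. LYZ was the only one called (log2 fold change 0.456 for MYB and 0.545 for NMYB). Erythroid markers summed to 1920 to 1970 CPM in MYB libraries, 1960 to 1980 CPM in NMYB libraries and 2210 to 2250 CPM in empty vector libraries. The transferrin receptor gene TFRC alone averaged 970 ± 32.1 CPM in MYB libraries, 907 ± 37.4 CPM in NMYB libraries and 1213 ± 23.5 CPM in empty vector libraries. These sums therefore mostly follow TFRC and do not show a fall of the markers as a set. Fibroblast markers summed to 8.83 to 9.42 CPM in MYB libraries, 9.25 to 9.97 CPM in NMYB libraries and 11.5 to 12.1 CPM in empty vector libraries, with COL1A1 called lower in both comparisons. Epithelial markers summed to 55.8 to 59.1 CPM in MYB libraries, 57.2 to 63.9 CPM in NMYB libraries and 62.4 to 67.4 CPM in empty vector libraries, with none called. In MYB libraries 3 of the 10 erythroid markers fell (LMO2, TFRC and GATA1) and 1 rose (KLF1), beside 22.3% of all genes called. In NMYB libraries 2 fell (TFRC and LMO2) and 2 rose (KLF1 and HBG1), beside 24.9% of all genes called.

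In the eRNA experiments, edgeR called SPRY4 for 34kp and no other feedback gene for either transcript. It had 15.3, 15.9 and 15.5 CPM in 34kp libraries, against 9.01, 9.83 and 11.004 CPM in 34kp control libraries, from 588 to 660 bin counts in 34kp libraries and 378 to 456 in 34kp control libraries. All 34kp libraries lay above all controls. This gave a log2 fold change of 0.63 (SE 0.118, adjusted p = 0.0205 by edgeR), or 1.54 times the control level with a 95% interval of 1.29 to 1.85. Of 16662 genes tested, 2.35% were called, 0.63% higher and 1.72% lower. The call was near the threshold: the adjusted p was 0.100 without 34kp control 1, 0.139 without 34kp control 2 and 0.110 without 34kp replicate 2, with log2 fold changes of 0.55 to 0.63.

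Most of the other feedback genes were higher on average in 34kp libraries than in their controls, without being called. SPRED1 had 23.7, 25.6 and 27.2 CPM in 34kp libraries, against 22.0, 18.3 and 18.3 CPM in 34kp control libraries, with no overlap (log2 fold change 0.37, SE 0.109, adjusted p = 0.107 by edgeR). SPRED2 had 44.1, 45.6 and 43.8 CPM in 34kp libraries, against 34.1, 34.3 and 41.9 CPM in 34kp control libraries (log2 fold change 0.26, adjusted p = 0.228 by edgeR). For DUSP5 the values were 2.66, 2.02 and 2.42 CPM in 34kp libraries and 1.48, 1.85 and 1.86 CPM in 34kp control libraries (log2 fold change 0.43, adjusted p = 0.312 by edgeR). These 3 genes and SPRY4 were the 4 without overlap, all higher in 34kp, beside 23.9% of all genes without overlap. ETV4 spread widely, with 83.7, 71.2 and 55.6 CPM in 34kp libraries and 57.8, 59.2 and 64.3 CPM in 34kp control libraries, and was called once 34kp replicate 3 was left out (adjusted p = 0.0463). The joined ETV5 and DGKG name had 15.5, 20.03 and 18.6 CPM in 34kp libraries and 15.1, 16.5 and 13.6 CPM in 34kp control libraries. In the gene table of the MYB experiment, DGKG held 1.86% of the counts of both genes. SPRY2 averaged 3.88 ± 0.702 CPM in 34kp libraries and 3.14 ± 0.0281 CPM in 34kp control libraries. Only SPRY1 was lower on average, at 1.77 ± 0.362 CPM in 34kp libraries and 2.01 ± 0.902 CPM in 34kp control libraries, where control 1 stood apart at 3.05 CPM. Thus 7 of 8 log2 fold changes were above 0, with a median of 0.27 beside -0.005 over all genes. DUSP6 had 7 bin counts in each 34kp library and 2, 7 and 0 in the controls, where 1 read can be counted in several bins. DUSP4 had 2, 5 and 1 bin counts in 34kp libraries and 10, 1 and 4 in the controls.

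**Figure D3:**
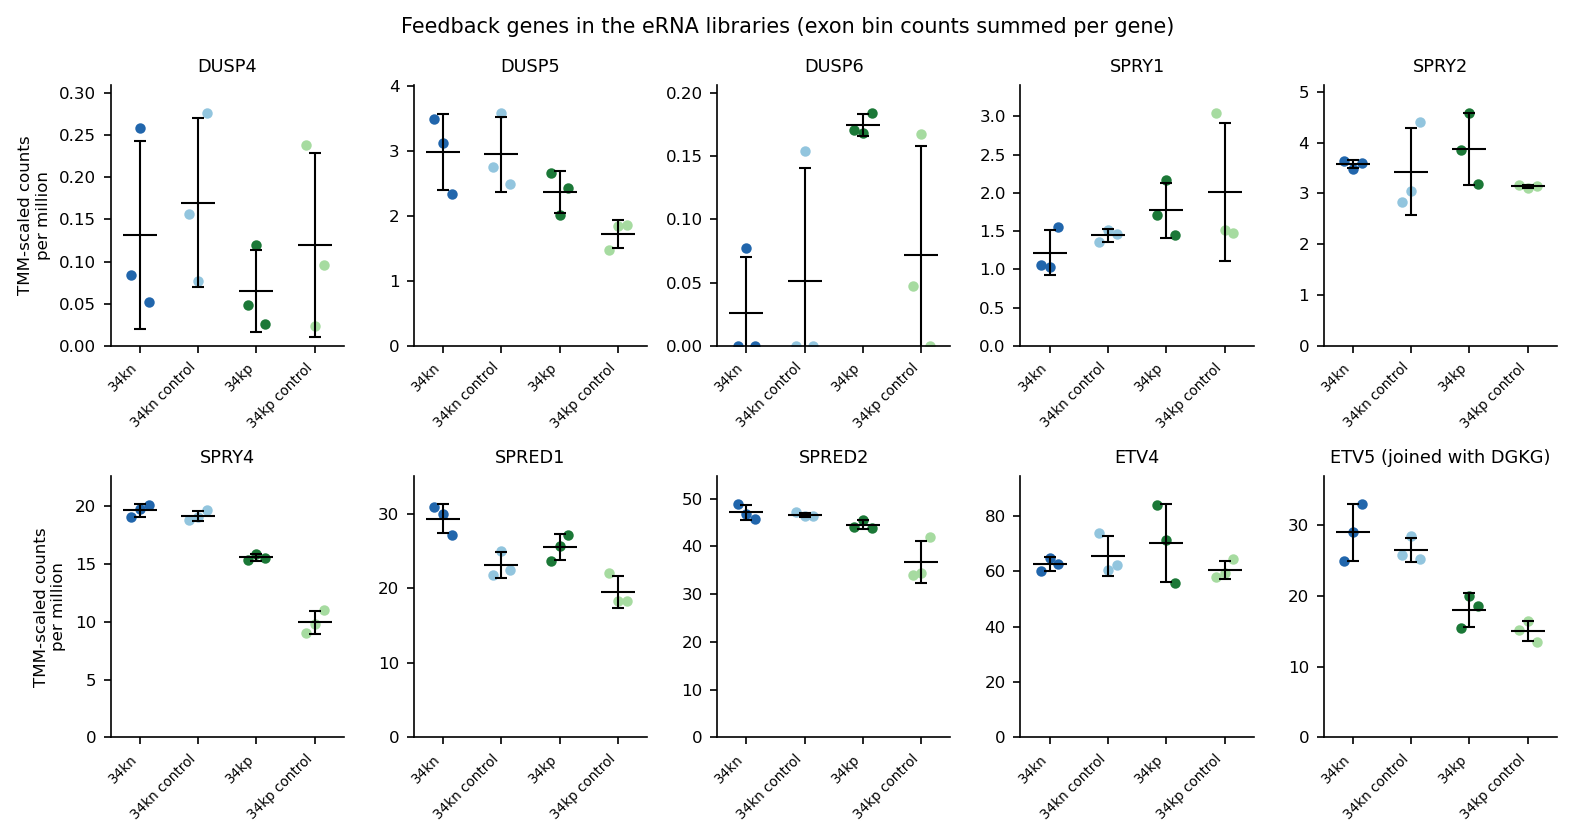
Levels of the 10 genes in 34kn, 34kn control, 34kp and 34kp control libraries, in TMM-scaled CPM on a linear axis from 0 (points are libraries, bars are mean and SD, n = 3, with bars cut at 0). SPRY4 lies between 15.3 and 15.9 CPM in 34kp libraries and between 9.01 and 11.004 CPM in 34kp control libraries, both below all 34kn and 34kn control libraries.

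SPRY4 was not called in 34kn libraries. It had 18.99, 19.8 and 20.1 CPM in 34kn libraries and 18.8, 18.99 and 19.6 CPM in 34kn control libraries (log2 fold change 0.02, 95% interval -0.17 to 0.22, adjusted p = 0.898 by edgeR). None of the 8 genes was called by edgeR, which called 0% of 16116 genes here, although 3759 genes had an unadjusted p below 0.05 and DESeq2 called 1288 genes. Of the 8 genes, 1 had an unadjusted p below 0.05 and DESeq2 called the same one, SPRED1. SPRED1 had 30.9, 30.0 and 27.1 CPM in 34kn libraries, against 21.7, 25.1 and 22.5 CPM in 34kn control libraries, the only feedback gene without overlap beside 29.2% of all genes (log2 fold change 0.33, SE 0.0944, adjusted p = 0.0851 by edgeR and 0.0219 by DESeq2). Without 34kn control 2, edgeR called it (adjusted p = 0.0149) among 2982 genes. ETV4 had 59.9, 64.9 and 62.8 CPM in 34kn libraries and 73.7, 60.5 and 62.2 CPM in 34kn control libraries. ETV5 with DGKG had 25.0, 29.1 and 33.0 CPM in 34kn libraries and 25.8, 28.5 and 25.3 CPM in 34kn control libraries. SPRED2 was level at 47.1 ± 1.58 CPM in 34kn libraries and 46.6 ± 0.509 CPM in 34kn control libraries, and DUSP5, SPRY1 and SPRY2 had log2 fold changes of 0.0032, -0.26 and 0.05. DUSP6 had 0, 3 and 0 bin counts in 34kn libraries and 0, 6 and 0 in the controls, and DUSP4 had 3, 10 and 2 in 34kn libraries and 6, 3 and 10 in the controls.

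The difference between both effects was tested in 1 fit of the 12 eRNA libraries. For SPRY4 the 34kn effect minus the 34kp effect was -0.60 on the log2 scale (SE 0.135, 95% interval -0.89 to -0.31, adjusted p = 0.0181 by edgeR). In this fit 6.36% of 17323 genes were called, 3.53% in that direction and 2.83% in the other. The adjusted p of SPRY4 was 0.0512 without 34kn replicate 1 and 0.0551 without either 34kp control 1 or 34kp control 2. The other 7 genes were not called, and their differences ranged from -0.43 for DUSP5 to -0.03 for SPRED1, with adjusted p-values of 0.224 to 0.946.

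The control groups of the eRNA experiments, which were not tested against each other, also differed in level. SPRY4 averaged 19.1 ± 0.414 CPM in 34kn control libraries and 9.95 ± 1.00 CPM in 34kp control libraries, so that 34kp libraries, at 15.6 ± 0.285 CPM, remained below both 34kn groups. For 7 of the 8 tested genes the 34kp control had the lowest mean of the 4 groups, and for 4 genes, DUSP5, SPRY4, SPRED2 and ETV5 with DGKG, all its libraries lay below all 34kn control libraries. Over all 17323 genes these shares were 28% for the lowest mean and 25.1% for lying below. ETV5 with DGKG averaged 26.5 ± 1.75 CPM in 34kn control libraries and 15.1 ± 1.46 CPM in 34kp control libraries. SPRY1 was the exception, with its lowest mean in 34kn libraries. For ETV4 all neighbours in the order of the 4 groups overlapped. A high level in 34kp libraries and a low level in their controls cannot be told apart for SPRY4. Erythroid markers, joined names included, summed to 20700 to 21500 CPM in 34kn libraries, 21900 to 24000 CPM in 34kn control libraries, 15500 to 16200 CPM in 34kp libraries and 14100 to 15400 CPM in 34kp control libraries, and their part in these results was not tested. HBG1 and HBG2 share a joined name, whose value enters these sums once for each of them, so the sums are too high. The fibroblast marker COL1A1 averaged 15.7 ± 2.27 CPM in 34kp libraries and 23.2 ± 1.49 CPM in 34kp control libraries and was called lower (log2 fold change -0.59, adjusted p = 0.0352 by edgeR, up to 0.211 with a library left out), beside 2.19 ± 0.917 CPM in 34kn libraries and 2.86 ± 0.676 CPM in 34kn control libraries. Fibroblast markers in all summed to 34.3 to 41.8 CPM in 34kp libraries, 39.7 to 41.5 CPM in 34kp control libraries, 24.8 to 31.2 CPM in 34kn libraries and 27.3 to 36.6 CPM in 34kn control libraries. Monocytic markers, of which CD68 is a joined name, summed to 1750 to 1970 CPM in 34kp libraries, 1600 to 1720 CPM in 34kp control libraries, 2110 to 2180 CPM in 34kn libraries and 2100 to 2190 CPM in 34kn control libraries. The CD68 name includes EIF4A1 and other genes, so these sums are not levels of monocytic markers. Lymphoid markers summed to between 7.88 and 14.5 CPM and epithelial markers to between 67.7 and 94.5 CPM over the 12 libraries, and the part of all these markers was likewise not tested.

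Some of the other genes that ERK induces rose in the 34kp experiment. Of 11 tested, 4 rose in 34kp libraries and 0 fell, beside 0.63% of all genes called higher, with a median log2 fold change of 0.38 beside -0.005 over all genes. EGR1 had the largest change, at 25.0 ± 3.91 CPM in 34kp libraries and 10.4 ± 1.66 CPM in 34kp control libraries (log2 fold change 1.25, adjusted p = 0.00234 by edgeR), yet 41.9 ± 2.11 CPM in 34kn libraries and 51.9 ± 3.45 CPM in 34kn control libraries. CCND1, which encodes cyclin D1, averaged 19.9 ± 0.239 CPM in 34kp libraries and 11.8 ± 1.59 CPM in 34kp control libraries (log2 fold change 0.73), and IER2 and MCL1 rose by 0.50 and 0.38, with MCL1 counted together with an antisense gene. The count was 2 without 34kp control 1 or 34kp control 3, and 1 without 34kp control 2 or 34kp replicate 2. With replicate number added to the fit as a block it was 1. For 34kn, edgeR called 0 of 12, and the median log2 fold change was -0.25. At an unadjusted p below 0.05 stood 6 of the 12, beside 3759 of all 16116 genes. DESeq2 called 3 lower, beside 877 of 10492 genes. The differences of effects were called for 6 of 13 genes, all with the 34kn effect below the 34kp effect, beside 6.36% of all genes called. Of the cascade's 20 components GAB2 fell in 34kp libraries, by 0.49, and of the 11 inhibitors CBLB, a ubiquitin ligase related to CBL, fell by 0.54. Over all genes, 1.72% were called lower there. Both calls were lost without any 1 of the 34kp controls and without 34kp replicate 2, with adjusted p-values up to 0.207 and 0.161.

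**Figure D4:**
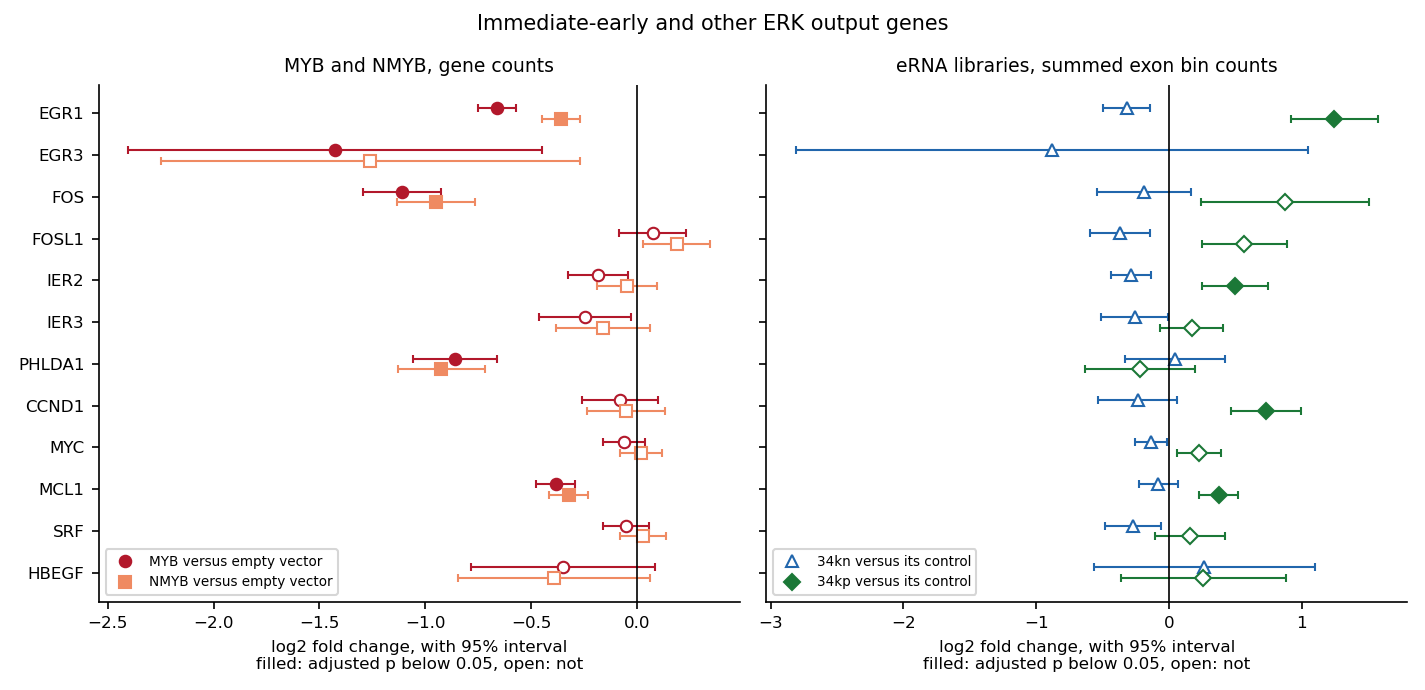
Log2 fold changes of 12 genes induced by ERK, other than the feedback genes, with 95% intervals on linear axes, for MYB and NMYB over empty vector (left, gene counts) and 34kn and 34kp over their own controls (right, summed exon bin counts); filled symbols have an adjusted p below 0.05. EGR1 lies at -0.66 for MYB, -0.36 for NMYB and 1.25 for 34kp, and EGR3 has no value for 34kp because it failed the filter there.

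The eRNA experiments were made to look at exon usage, that is, whether a gene's exon bins change relative to the gene as a whole. Of the feedback genes' bins, 87 were tested in the 34kn experiment and 85 in the 34kp experiment, and none was called in either by edgeR's diffSpliceDGE or by limma's diffSplice. The background was 0.795% of 216197 bins for 34kn and 0.00862% of 220442 bins for 34kp. Tested per gene, exon usage was called for 7.24% of all genes in 34kn and 0.0853% in 34kp, and for none of the feedback genes. At an unadjusted p below 0.05 stood 5 feedback gene bins in 34kn (8.64% of all bins were below it) and 0 in 34kp (2.18% of all bins). The lowest adjusted p was 0.407, for a bin of SPRED2 in 34kn. SPRY4 gave 5 tested bins in 34kp, of which bin 3 held 84.2% of their counts. Bin 3 averaged 13.2 ± 0.629 CPM in 34kp libraries and 8.20 ± 0.884 CPM in 34kp control libraries, and its change relative to the gene was 0.02 on the log2 scale. The relative changes of the other 4 bins ranged from -0.63 to 0.56, each on 5 to 39 counts per library. In 34kn, bin 3 held 83.3% of the tested counts of SPRY4 and averaged 15.4 ± 0.824 CPM in 34kn libraries and 14.96 ± 0.466 CPM in 34kn control libraries.

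**Figure D5:**
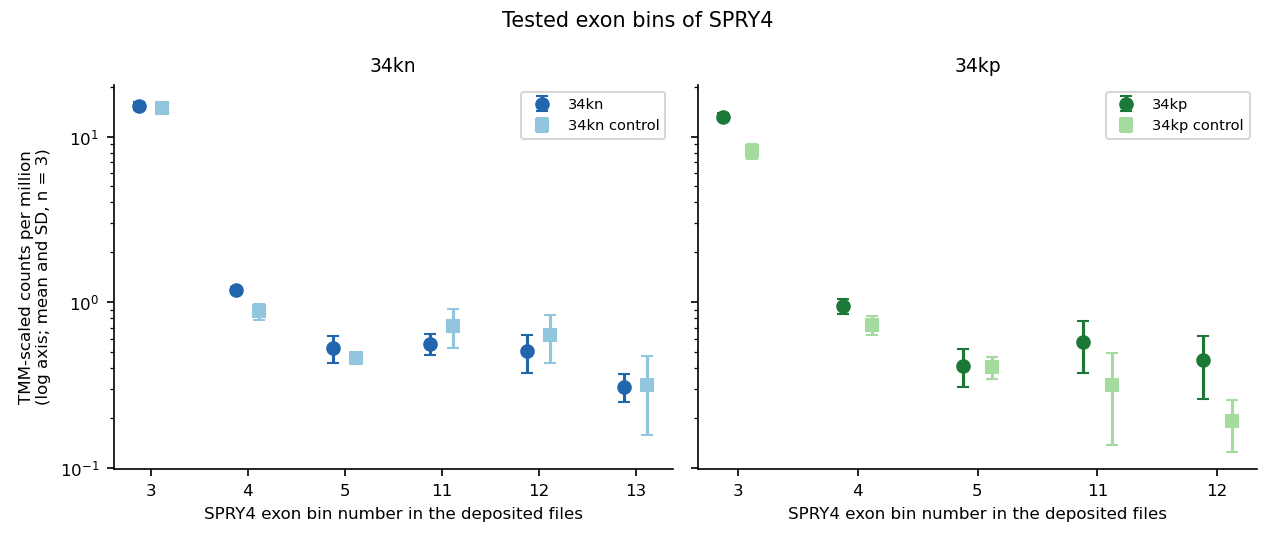
Levels of the tested SPRY4 exon bins in 34kn and its control (left) and 34kp and its control (right), in TMM-scaled CPM on a log axis (mean and SD, n = 3). Bin 3 carries 83.3% and 84.2% of the counts of the tested bins, and lies at 13.2 CPM in 34kp libraries and 8.20 CPM in 34kp control libraries.

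Across the 9 libraries of the gene table, which share their groups and therefore their differences between groups, SPRY4 followed ETV4 with a Pearson r of 0.880 and SPRED2 with 0.855 (log2 CPM). SPRY2 ran against SPRED2, with an r of -0.865, and these were the 3 strongest of 28 pairs. Among all genes tested, those most like SPRY4 included TMEM161B-DT (r = 0.997) and the transcription factor gene RUNX2 (0.991). For ETV4 they were ACRBP (0.993), RAC2, which encodes a small GTPase of blood cells (0.992), and SELENBP1 (0.990). SPRED1 was most like TUG1 (0.982), SPRED2 like LMOD1 (0.963), ETV5 like ITSN1 (0.969), SPRY2 like the ribosomal protein gene RPS23 (0.977), SPRY1 like CCDC134 (0.965) and DUSP5 like BCL2L2-PABPN1 (0.971).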

How the data were processed

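RNA-seq of K562 cells was deposited as whole-number counts: reads per gene for the 9 libraries of the MYB experiment and reads per exon bin for the 12 libraries of the eRNA experiments. Reads had been processed with Trimmomatic 0.93, HISAT2 2.2.1, featureCounts 2.0.1 and STAR 2.7.10a on GRCh38, per the submitters' processing notes. Libraries had been made from total RNA taken up in TRIzol with a TruSeq kit, per the labels' protocols. The annotation release and strand setting are not given in the sources used here.

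Bin counts were summed per gene name, so a read over several bins counts several times, and levels from gene and bin tables are not set against each other. Of 57300 gene names, 2582 join overlapping genes. Lines that name no gene were left out; reads outside bins made up 29.5 to 32.8% and low-quality reads 4.46 to 10.5% of the bin files' totals.

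Gene-level tests used edgeR 4.0.16 under R 4.3.3 (TMM, filterByExpr with a minimum count of 10, robust quasi-likelihood test, Benjamini-Hochberg adjusted p below 0.05 over all genes). The MYB experiment was fitted over its 9 libraries, each eRNA experiment over its 6, and the difference of effects over all 12. Exon usage was tested with diffSpliceDGE. The scripts were tested on simulated data with 200 changed genes. Counts of same-group libraries spread wider than counting error (chi-square per degree of freedom 1.59 to 51.7 over 21 pairs). Alternatives were DESeq2 1.42.0, RLE scaling, library totals, no filter, a replicate block, other sets of libraries, each library left out, and limma 3.58.1 for bins. The genes named are the 10 feedback genes, in some comparisons as a range, MYB, and up to 4 called genes of each other list with the largest change; a few genes are not reported here. The genes and lists were chosen with earlier results of these data known. Coordinates are from GENCODE 29 and promoter sequences from RefSeq (GRCh38.p14). The search for GGAA was added after 4 longer motifs gave no match. Correlations used log2 CPM with a prior count of 2. Intervals cover 95%.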

Additional observations from a re-analysis of the deposited data

Results flagged for a closer look

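For these genes the difference between groups was itself tested, by edgeR's quasi-likelihood test, and passed an adjusted p of 0.05. The 34kn effect minus the 34kp effect was -0.60 for SPRY4 on the log2 scale, the only one of the 8 tested feedback genes past the threshold. Among genes that ERK induces it was -1.56 for EGR1, -0.97 for CCND1, -0.94 for FOSL1, -0.78 for IER2, -0.46 for MCL1 (joined with an antisense gene) and -0.36 for MYC. In components and inhibitors of the RAS pathway it was 0.50 for GAB2, 0.78 for CBLB and -0.47 for LZTR1 (a joined name). Receptor genes gave 1.65 for MET, 1.43 for KIT and -0.53 for EPOR (a joined name), and the ETS repressor gene ERF (a joined name) gave -0.56. KIT had only 24 to 33 bin counts per library in 34kn controls. Its level averaged 0.727 ± 0.163 CPM in 34kn control libraries and 4.46 ± 0.849 CPM in 34kp control libraries. The erythroid marker LMO2 gave -0.57. With each library left out in turn, EGR1, CCND1, FOSL1, IER2, MCL1 and LMO2 kept an adjusted p below 0.05. The other calls were lost without at least 1 library, with adjusted p-values up to 0.0551 for SPRY4, 0.0829 for MYC, 0.114 for GAB2, 0.101 for CBLB, 0.0857 for LZTR1, 0.0963 for MET, 0.0860 for KIT, 0.105 for EPOR and 0.116 for ERF.

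NMYB over MYB gave a log2 fold change of 0.30 for EGR1 and 0.18 for GATA1, an erythroid transcription factor gene. Without MYB replicate 1, their adjusted p-values were 0.0824 and 0.224 and edgeR called 0 of all genes, with 2136 at an unadjusted p below 0.05. Explanations of these differences were not tested.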

How the results depend on the processing

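Of 616 values of the feedback genes under alternatives, 573 kept their direction and side of the threshold, 9 lost a call, 10 gained one and 24 changed sign, none of these called. Of 1112 values of other genes that were called, 905 kept their call, 207 lost it and 0 changed sign.

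Feedback genes called moved for NMYB against MYB to 1 with the replicate block (0 in the reported test), for 34kn to 1 with DESeq2 and 1 with no filter (0 reported), for 34kp to 2 with DESeq2, 2 with all 12 libraries and 0 with the replicate block (1 reported), and for the difference of effects to 0 with the block (1 reported). The genes gained there were ETV4 for NMYB against MYB and SPRED1 for 34kn and 34kp. For NMYB, no filter added ETV5 (adjusted p = 0.0497), for 3 against 2 reported, as did leaving out NMYB replicate 1 (adjusted p = 0.0476). Other genes that ERK induces had 2 calls for the difference of effects with the block (6 reported). For 34kp they had 1 with the block and 6 with DESeq2, no filter or all 12 libraries (4 reported). With the block the adjusted p of SPRY4 was 0.110 for 34kp and 0.0958 for the difference of effects. The labels do not say whether replicate numbers pair the libraries. Correlations of same-numbered deviations ran from -0.185 to 0.0996, which does not settle it with 3 libraries per group. With the block, all genes called were 4342 for MYB (3529 reported) and 4713 for NMYB (3945 reported).

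All genes called moved for NMYB against MYB to 399 with DESeq2, 656 with no filter, 1184 with the block and 60 with 6 libraries (181 reported), and for 34kn to 1288 with DESeq2 and 1572 with no filter (0 reported). For 34kp they moved to 976 with DESeq2, 997 with no filter, 71 with the block and 817 with 12 libraries (392 reported), and for the difference of effects to 2056, 2085 and 105 with DESeq2, no filter and the block (1102 reported). The cause was not tested.

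With each library left out in turn, feedback genes called ran from 2 to 2 for MYB, 1 to 3 for NMYB, 0 to 0 for NMYB against MYB, 0 to 1 for 34kn, 0 to 2 for 34kp and 0 to 2 for the difference of effects. All genes called ran from 2491 to 2889 (MYB), 2711 to 3900 (NMYB), 0 to 323 (NMYB against MYB), 0 to 2982 (34kn), 46 to 1175 (34kp) and 380 to 2747 (difference of effects). Feedback gene bins called stayed at 0 in every setting.

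Signs changed with a library left out for 9 uncalled values: DUSP5 for NMYB against MYB (-0.0347 to 0.15), SPRY4 for NMYB against MYB (-0.0585 to 0.0289), DUSP5 for 34kn (-0.12 to 0.17), SPRY2 for 34kn (-0.0679 to 0.27), SPRED2 for 34kn (-0.0210 to 0.0288), ETV4 for 34kn (-0.13 to 0.0172), SPRY1 for 34kp (-0.37 to 0.23), SPRY1 for the difference of effects (-0.48 to 0.11) and SPRED1 for the difference of effects (-0.12 to 0.0283). With library totals, SPRED1 gave 0.0240 for the difference of effects. Library totals put 56.8% of MYB calls higher, against 43.1% as reported. For NMYB against MYB it was 25.3% against 45.3%, or 34.9% with RLE, for 34kp 15.5% against 26.8%, and for the difference of effects 59.8% against 44.6%. DUSP4 and DUSP6 failed the low-count filter and were not tested.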
